A study of Homo sapiens with 3 samples.

Results

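The transcriptome described here is that of KMS11, an established human multiple myeloma cell line with the t(4;14) translocation, carrying a control hairpin. It was measured on 1 array of the 3 in the series, the array labelled shLuc, and all 41091 probe sets with a single gene symbol were taken, of 54675 probe sets on the array, which gave 19775 genes. The cells had been infected with a lentivirus in the presence of polybrene and were collected 48 h later. The hairpin was named for luciferase, a gene that human cells lack, so these were infected cells with a hairpin directed at none of their own genes, and uninfected KMS11 cells were not analysed here. The other 2 arrays carried hairpins against MMSET (current symbol NSD2) and are not compared here. All 3 groups shared the line and the infection. KMS11 is a single culture-adapted line, RNA came from the whole culture, and in such bulk RNA a change in cell number and a change in RNA per cell cannot be told apart. There was no replicate, so no error between cultures and no test could be had.

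Plasma cells are the antibody-secreting end stage of the B lineage. IRF4, PRDM1 and XBP1 replace the B cell programme run by PAX5 and BCL6, and the endoplasmic reticulum (ER) expands to fold and export immunoglobulin. Myeloma is the cancer of these cells, and many cases join an oncogene to an immunoglobulin locus. In t(4;14) the genes affected are NSD2, a histone H3 lysine 36 methyltransferase, and FGFR3, a fibroblast growth factor receptor.

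Each gene was represented by its brightest probe set, in the authors' MAS5 signal units, and its percentile was taken among the 19775 genes. Where 1 value is given for a gene it is that of the brightest probe set. Probe sets differ in binding strength and no signal is per transcript length, so neither a signal nor a percentile orders genes by transcript number. The reading used instead was whether a gene stood above a background ceiling of 228. This is the 95th percentile of 65 measured genes, of 77 listed, that are known from tissues such as liver, retina, heart, brain and endocrine glands. Their median signal was 40.4. Those at or above the ceiling were KRT10 (7035), CRYBB1 (1384), SFTPB (356) and CHRNA1 (229). Over all genes, 8914 of 19775 stood above the ceiling, which is 45.1%, and of the 19205 genes outside every list used here 44.5% did. The top 10% of genes began at a signal of 3242. The histogram of gene signals had a peak below the ceiling and a broad shoulder above it. All 8 marker genes chosen for this line, IRF4, PRDM1, XBP1, SDC1, TNFRSF17, MAF, NSD2 and FGFR3, lay in the top 10%.

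**Figure D1:**
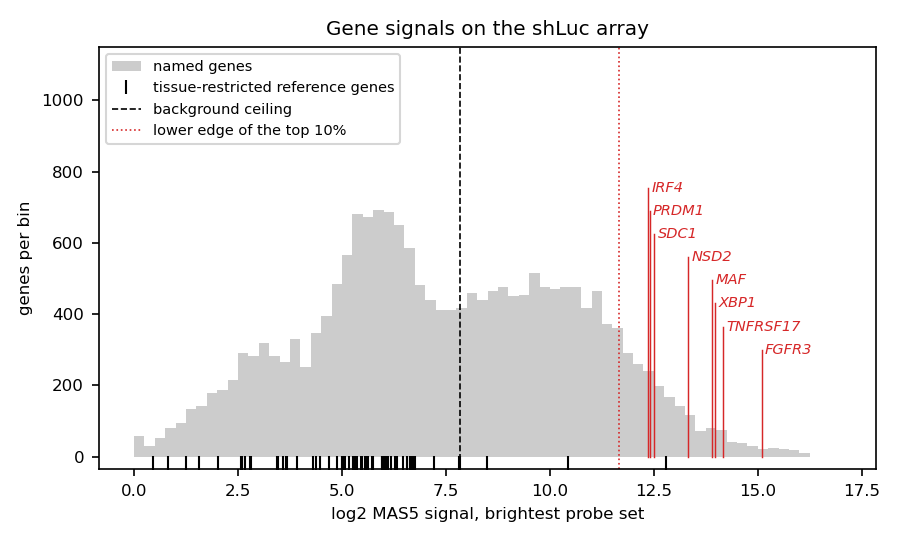
Histogram of log2 MAS5 signal for the brightest probe set of each named gene on the shLuc array, with genes per bin on the vertical axis; black ticks are the tissue-restricted reference genes, the dashed line is the background ceiling of 228 and the dotted line is the lower edge of the top 10% at 3242. The 8 red lines are the markers, from IRF4 at 5291 and PRDM1 at 5403 to FGFR3 at 34952, all right of the dotted line.

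The only error that 1 array holds is the disagreement between probe sets of the same gene. For 10523 genes with at least 2 probe sets, the SD of the log2 signal over the probe sets had a median of 1.67, and the brightest exceeded the dimmest by a median of 7.96-fold. Of the 6238 such genes above the ceiling, 1948 (31.2%) had every probe set above it. Genes with 1 probe set were above the ceiling in 28.9% of cases and genes with at least 4 in 72.0%, so each list's count is given beside its matched share, the share above the ceiling among all genes with the same numbers of probe sets. The hybridisation control transcripts, added in rising amounts from bioB through bioC and bioD to cre, read 1524 to 1705, 3712 to 5013, 18521 to 24184 and 54151 to 70502. Among the array's own degradation controls, the log2 difference of 3' over 5' signal was 1.70 for ACTB and 0.042 for GAPDH.

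Each of the 8 markers was above the ceiling on at least 1 probe set. Their percentiles were 99.6 for FGFR3, 98.8 for TNFRSF17, 98.6 for XBP1, 98.5 for MAF, 97.4 for NSD2, 94.7 for SDC1, 94.2 for PRDM1 and 94.1 for IRF4. FGFR3 read 34952 and 214 on its 2 probe sets, so that the dimmer of them lay just under the ceiling. NSD2 was above the ceiling on all 6 of its probe sets, at 10299.8, 5617, 2165, 1492, 1239 and 1027. MAF, a basic leucine zipper factor that a different translocation joins to an immunoglobulin locus in some myelomas, read 15208, 7170.4, 6664, 835, 195 and 107, with 4 of 6 probe sets above. SDC1, the syndecan known as CD138 that defines plasma cells in the clinic, read 5844 and 4166. TNFRSF17 (BCMA), a survival receptor for the cytokines BAFF and APRIL, read 18258 on its only probe set. The remaining 3 markers are the transcription factors IRF4, PRDM1 and XBP1.

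Plasma cell transcription factors were above the ceiling without exception. This list, like the others, was chosen with earlier results of these data known, so its count is a description only. All 13 listed factors were above the ceiling, against 45.1% of all genes and 67.3% of genes with the same numbers of probe sets, and 8 were in the top 10%. IRF4, the factor on which myeloma cells depend, read 5291, 189 and 1.97, so a single probe set of 3 carries its call. PRDM1, which represses the B cell programme, read 5403, 658 and 478, all above. XBP1, which drives expansion of the secretory apparatus, read 16087 and 53.2. POU2AF1, the B-lineage coactivator of octamer-binding factors, read 18545 and 73.1. TCF4, an E protein, was above the ceiling on all 8 probe sets, from 689 to 25789.7. The other E protein on the list, TCF3, read up to 7288 but was above the ceiling on 7 of 14. CREB3L2, a membrane-bound factor of the secretory pathway, read 5748, 151 and 68.3. ELL2, the elongation factor that favours the secreted form of immunoglobulin heavy chain mRNA, read 4569.9, 1446, 307 and 4.86. IKZF3 (Aiolos), a substrate of cereblon in the presence of immunomodulatory drugs, read 2853, 1264 and 452, whereas its relative IKZF1 (Ikaros) was above the ceiling on 2 of 9 probe sets, at most 745. ATF6, a sensor of unfolded protein, was above on all 4, from 1236 to 2481. POU2F2 at 305 and ZBTB20 at 262 were each above on 1 probe set only and near the ceiling.

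Of the regulators that precede the plasma cell stage, some were above the ceiling and none was in the top 10%. Among 14 measured B cell and germinal centre regulators, 9 (64.3%) were above the ceiling, against 50.5% of genes with the same numbers of probe sets. PAX5, which holds cells in the B cell state, read 61.5 and 14.9, EBF1, its partner in early B cells, at most 119, and SPI1, the factor PU.1, 6.82. The recombinase genes RAG1 and RAG2 read 5.80 and 8.13. These 5 were not above the ceiling on any probe set. Those above it were ETS1 at 2330.3, BCL11A at 2326 with all 4 probe sets above, MEF2C at 1500.1, ID3 at 850.2, BACH2 at 625 and 415, CIITA at 557, IRF8 at 469, BCL6 at 425 and SPIB at 289. BCL6, the repressor of the germinal centre stage, and CIITA, the coactivator of MHC class II genes, were each above on 1 of 3 probe sets. So was ETS1, with 172 and 87.5 on its others, and SPIB was above on 1 of 2.

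**Figure D2:**
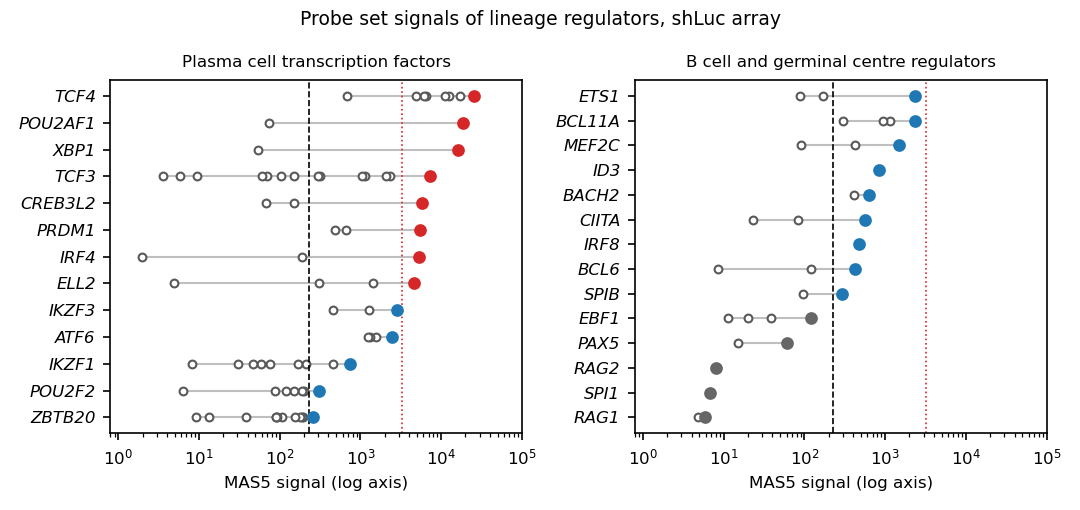
MAS5 signal (log axis) of every probe set of the plasma cell transcription factors (left) and of the B cell and germinal centre regulators (right) on the shLuc array; the filled point is a gene's brightest probe set (red in the top 10%, blue above the ceiling, grey not above it), open points are its other probe sets, the dashed line is the ceiling of 228 and the dotted line the top 10% at 3242. All 13 plasma cell factors have a filled point right of the dashed line, and EBF1, PAX5, RAG2, SPI1 and RAG1 do not.

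Immunoglobulin signal was confined to light chain and J chain probe sets among those examined. Of 9 measured immunoglobulin and J chain genes, 3 were above the ceiling, IGKC, IGLC1 and JCHAIN, against a matched share of 61.0%. JCHAIN, which links immunoglobulin monomers, read 55012 on its single probe set. Of 10 probe sets named for kappa chain genes alone, 4 were above the ceiling, the brightest, for the constant region gene IGKC, at 43833. A further 11 kappa probe sets match several symbols and were given no gene, and 8 of them were above the ceiling, up to 76777. Of 25 probe sets named for heavy chain genes alone, 0 were above the ceiling, and the highest read 106. Of 34 heavy chain probe sets with several symbols, 0 were above it, with a median of 13.8 and a highest signal of 74.9. Over all 1801 probe sets with several symbols, 808 were above the ceiling. The matched share is per gene, and no such share was taken over probe sets with 1 symbol. IGHG1, IGHM, IGHA1 and IGHD, the constant regions of IgG, IgM, IgA and IgD, read at most 85.3, 67.3, 37.0 and 21.1. Lambda chain probe sets with several symbols were above the ceiling in 1 of 11 cases and those with 1 symbol in 3 of 21, the brightest of these being for IGLC1 at 2948. The surrogate light chain gene IGLL1 read 25.7 and IGLL5 read 49.2. Immunoglobulin genes of the same chain class share sequence, so a signal on these probe sets does not name the gene. IGLC1 was above the ceiling on 2 of 9 probe sets and IGKC on 3 of 8. Both calls were lost when probe sets with the suffix _x_at or _s_at were dropped. Whether the IGLC1 signal came from lambda chain transcripts was not tested.

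Plasma cell antigens of the cell surface ranged from the top 10% to signals below the ceiling. Of 20 antigens, 15 (75%) were above the ceiling and 10 were in the top 10%, and genes with the same numbers of probe sets were above in 52.5% of cases. Beside TNFRSF17 and SDC1, the top 10% held CD59, a shield against complement (17839), CD48 (15089.7), CD47, which inhibits phagocytosis (14497), CD28, a costimulatory receptor acquired by some myelomas (6758, 672 and 571), CADM1 (4542), CD81 (4005) and CD58 (3539.6). SLAMF7, the target of elotuzumab, read 7133, 3213 and 719.5 on its probe sets, all above the ceiling. LY9 read 2392, BSG 1585 and CD44, the hyaluronan receptor, at most 1729.6 with 8 of 13 probe sets above. TNFRSF13B (TACI) read 523 and GPRC5D, an orphan receptor used as a therapy target, 479. Not above the ceiling were CD38, the ectoenzyme bound by daratumumab, at 94.4 on its only probe set, CD27 at 59.4 on its only probe set, FCRL5 at no more than 186 on 5, NCAM1 (CD56) at no more than 132 on 7, and KIT at 31.3 on 1. CD38 is among the markers used to identify normal plasma cells, so the labelled cell type lacked this defining marker at the signal that 1 probe set could show.

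Genes of the B cell surface were largely at background. Of 20 measured genes, 4 (20%) were above the ceiling, none was in the top 10%, and genes with the same numbers of probe sets were above in 48.2% of cases. MS4A1, which encodes CD20, read at most 66.1 over 4 probe sets, CD22 at most 131, CD79A, a signalling chain of the B cell receptor, at most 154, CD37 at most 6.67 and CD52 at most 4.42. The kinase gene BTK read 17.6, and TNFRSF13C, the BAFF receptor, 51.2. The 4 above the ceiling were CR2, a complement receptor, on 1 of 2 probe sets (854), the adaptor BLNK (410.2), CD79B (297) and CD40 (254). CD79B and CD40 stood near the ceiling and on 1 probe set each.

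**Figure D3:**
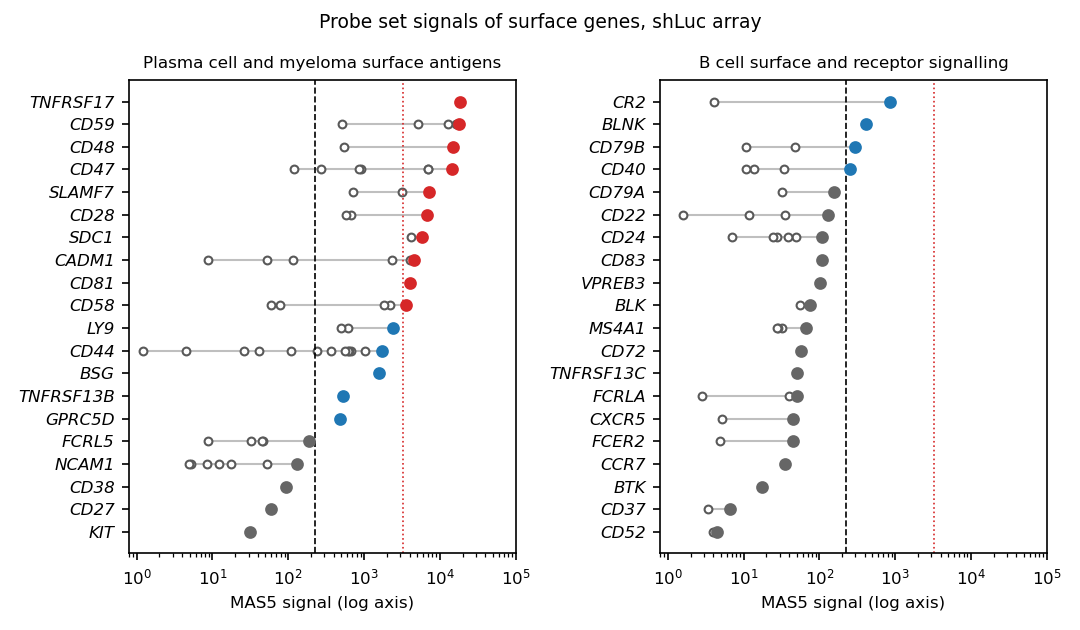
MAS5 signal (log axis) of every probe set of plasma cell and myeloma surface antigens (left) and of B cell surface and receptor signalling genes (right) on the shLuc array; filled points are the brightest probe set of a gene (red in the top 10%, blue above the ceiling, grey not above), open points the others, and the dashed and dotted lines the ceiling and the top 10%. On the left 15 of 20 filled points lie right of the ceiling, on the right 4 of 20.

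Among the genes that myeloma translocations activate, FGFR3, CCND2, MAF, NSD2 and MYC were bright. Of 9 measured, 7 were above the ceiling and 5 in the top 10%, and genes with the same numbers of probe sets were above in 58.8% of cases. The D-type cyclins are the partners of CDK4 and CDK6. CCND2 read 19310.3, 2656, 749 and 720.1, all above the ceiling. CCND3 read 571 and 5.12, which puts its probe sets on either side of the ceiling, and CCND1 read 49.7 and 5.36, both below it. MYC, the growth-promoting transcription factor, read 9616 on its single probe set. Its relative MYCN was above on 1 of 10 probe sets, with 777 on that and at most 71.7 on the others, and MYCL read at most 73.2. CCND2, ITGB7 and CCR1 are known targets of MAF, and 3 of the 4 listed targets were above the ceiling, against a matched share of 44.2%. ITGB7, an integrin subunit for adhesion to stroma, read 8574 and CCR1, a chemokine receptor, 2285 and 629.8. NUAK1, a kinase also linked to MAF, read 154, not above the ceiling.

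Genes hit by mutation, deletion or gain in myeloma were nearly all above the ceiling. Of 26 listed, 18 were analysed here, and 17 of them (94.4%) were above the ceiling, against 50.5% of genes with the same numbers of probe sets. CKS1B, a cofactor of CDK that is gained on 1q in many patients, read 13116. CDKN2A, whose locus encodes the CDK4 and CDK6 inhibitor p16, read 8606, 3624 and 11.0, and RB1, the pocket protein that this inhibitor protects from CDK4 and CDK6, read 3363 and 42.8. TENT5C, a poly(A) polymerase of plasma cells, read 7034 and 503, and DIS3, an exosome ribonuclease, was above on 4 of 5 probe sets, at most 1532. The NF-kB pathway was represented by the subunit genes RELA (1194), NFKB1 (1069), NFKB2 (976, 1 of 3 probe sets above) and RELB (609), and by the activating kinase MAP3K14 (351). Its brakes TRAF3, BIRC2 and CYLD read 1124 and 205, 3809 and at most 858, and the cytokine gene LTB read 6574 and 159. KDM6A, a histone H3 lysine 27 demethylase, was above on 2 of 4 probe sets (at most 1021), ATM on 2 of 6 (at most 748), and SP140 read 263. EGR1, an immediate early gene, read at most 131 and was the only analysed member not above the ceiling.

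The machinery of protein folding in the ER was fully represented. All 33 measured genes of 36 listed were above the ceiling and 20 were in the top 10%, whereas genes with the same numbers of probe sets were above in 50.0% of cases. For 26 of the 33 genes every probe set was above the ceiling. The 6 brightest were PRDX4, an ER peroxiredoxin (33312), PPIB, a prolyl isomerase (26119 and 16044), HERPUD1, which acts in ER-associated degradation (25501 and 273), HSPA5, the chaperone BiP that binds free heavy chains (24800 and 964), and the disulfide isomerases PDIA6 (17496, all 4 probe sets above) and PDIA3 (16845, 817 and 639). HSP90B1, the ER member of the HSP90 family, read 14308 and 719, P4HB 12387, 3509 and 1036, CANX and CALR, the lectin chaperones for glycoproteins, at most 6816 and 4423. Of the sensors, EIF2AK3 (PERK) read 10824 and 31.3 and ERN1 (IRE1) 2528, 1940.3 and 141. MZB1 and DERL3, both known from antibody-secreting cells, read 1930.2 and 1401 and 495, 242 and 8.17.

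The promoters of part of these folding genes hold the ER stress element, the motif that ATF6 binds together with the CCAAT-binding factor NF-Y, written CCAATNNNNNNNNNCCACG and searched on both strands in the 250 bases before the RefSeq start site (GRCh38.p14). It overlaps the CCAAT box, which is its first part. The element was found in 6 of 30 folding genes with a promoter window (20%), in 16 of 15381 named genes (0.104%) and in 22 of all 27305 windows of the table (0.0806%). Within the folding genes it was in 4 of the 18 in the top 10% and in 2 of the 12 others, CRELD2 and ERO1B. It was in 0 of 40 windows of genes for ER entry and transport, 0 of 22 proteasome genes and 0 of 50 tissue-restricted reference genes. Among the plasma cell transcription factors it was in 1 of 10 windows, that of XBP1, where its last base lies at -34 from the start site. The related element II, ATTGGNCCACG, was in 3 of the 30 folding genes, HERPUD1, SDF2L1 and HYOU1, and in 14 of 15381 named genes. The windows of the 4 genes of the top 10% that hold the first element are shown, since they give the motif in its sequence, each 5′ to 3′ on the gene's strand, with the element in capitals. The second element of HSP90B1 and that of CALR lie on the opposite strand and so read from CGTGG to ATTGG. They lie at chr9:125241344-125241593 on the minus strand for HSPA5, and on the plus strand at chr12:103930160-103930409 for HSP90B1, chr5:179698679-179698928 for CANX and chr19:12938359-12938608 for CALR.
HSPA5: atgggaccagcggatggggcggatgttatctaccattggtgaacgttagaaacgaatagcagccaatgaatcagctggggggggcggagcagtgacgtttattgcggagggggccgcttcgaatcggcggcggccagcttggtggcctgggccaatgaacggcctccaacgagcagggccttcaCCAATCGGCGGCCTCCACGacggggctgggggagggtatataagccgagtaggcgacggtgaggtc
HSP90B1: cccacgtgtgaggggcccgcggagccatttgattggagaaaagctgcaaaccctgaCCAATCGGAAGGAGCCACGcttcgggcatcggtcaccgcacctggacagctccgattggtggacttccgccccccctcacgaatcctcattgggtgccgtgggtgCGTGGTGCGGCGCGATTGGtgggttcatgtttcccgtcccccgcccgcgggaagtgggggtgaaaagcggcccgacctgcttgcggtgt
CANX: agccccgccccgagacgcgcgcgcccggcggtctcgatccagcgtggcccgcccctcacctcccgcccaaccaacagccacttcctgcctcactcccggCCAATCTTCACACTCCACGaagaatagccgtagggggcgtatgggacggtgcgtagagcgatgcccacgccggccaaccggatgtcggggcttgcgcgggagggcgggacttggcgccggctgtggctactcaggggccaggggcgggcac
CALR: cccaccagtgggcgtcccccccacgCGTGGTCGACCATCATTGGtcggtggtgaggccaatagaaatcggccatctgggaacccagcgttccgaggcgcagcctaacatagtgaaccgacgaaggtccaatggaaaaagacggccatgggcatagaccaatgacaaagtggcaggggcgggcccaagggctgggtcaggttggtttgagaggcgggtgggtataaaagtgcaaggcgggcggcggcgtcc
Counted from the start site, the element's last base lies at -48 in HSPA5, -176 and -71 in HSP90B1, -133 in CANX and -207 in CALR. The presence of these letters is a description of the window, and binding was not measured.

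Entry into the ER, glycosylation and vesicle traffic showed a full representation too. All 46 measured genes were above the ceiling and 35 (76.1%) were in the top 10%, and the matched share above the ceiling was 50.9%. The translocon-associated SSR4 read 40519, the oligosaccharyltransferase subunit RPN2 34225, 33682 and 20836, the channel subunit SEC61B 27420.1 and 378, and the signal peptidase subunits SPCS1 and SEC11C 25940.2 and 23906 and 275. SSR2 read 23568 and SRP9, of the signal recognition particle, 23315. LMAN1, a cargo receptor between ER and Golgi, read 17395, 364 and 168. The lowest of the list was KDELR3, a receptor that returns ER proteins from the Golgi, on 1 of 3 probe sets at 241, while KDELR1 read 8946 and 1599.9. Genes of the ATF4 programme, which answers ER stress and lack of amino acids, were all above the ceiling too (12 of 12, matched share 43.5%), with 3 in the top 10%: ATF4 itself at 28464, the asparagine synthetase gene ASNS at 6287 on 1 of its 2 probe sets and DDIT4 at 5209. PSAT1 read 2875, ATF3 2141 and SHMT2 1416. DDIT3, the death-promoting factor CHOP, read 923.

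Among receptors for growth signals, both interleukin 6 receptor chains, FGFR3, the insulin receptor and IGF1R were above the ceiling. Of 26 receptor genes, 17 (65.4%) were above the ceiling, close to the 59.0% of genes with the same numbers of probe sets, a count near that background. In the top 10% were FGFR3 and IL6ST, the shared signalling chain gp130, whose 7 probe sets ran from 38.6 to 23312 with 4 above. IL6R, the ligand-binding chain, read 3078, 1609 and 71.4. The insulin receptor gene INSR was above on 4 of 5 probe sets, at most 3198, and IGF1R on 3 of 5, at most 2065. Type I interferon receptor chains were above, IFNAR2 at 2622 and IFNAR1 at 2023, as were IL10RB at 2575 and IL21R at 1587. Of the other FGF receptors, FGFR1 was above on 2 of 7 probe sets, FGFR2 on 2 of 11 and FGFR4 on none of 4. ERBB2, FLT1, MET, EGFR, KDR, ERBB3, PDGFRA and PDGFRB were not above the ceiling on any probe set, with highest signals from 2.98 for PDGFRB to 188 for ERBB2.

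Of the ligands, HGF and VEGFA were in the top 10%, and IGF1 and WNT5A were above the ceiling. The count was 8 of 19 (42.1%), near the 45.1% of all genes and the matched share of 46.6%. HGF, hepatocyte growth factor, read 8905, 1053, 642, 483 and 357, all above, while its receptor gene MET read at most 92.4. VEGFA, which promotes vessel growth, read 5599, 816, 234 and 102. IGF1, a ligand of IGF1R, was above on 4 of 5 probe sets, from 7.45 to 2196, and WNT5A read 2205 and 1667. IL15 read 1187 and 643, PDGFA 553 and 288, NRG2 at most 436 and TGFB1 at most 301. IL6 read 85.4 and was not above the ceiling, nor were the BCMA ligands TNFSF13 (APRIL, 77.9) and TNFSF13B (BAFF, 83.2), the Wnt inhibitor DKK1 (193) or TNF (27.5). Both interleukin 6 receptor chains were thus above the ceiling without IL6, HGF was above it without MET, and IGF1 and IGF1R were both above. Of the receptors for BAFF and APRIL, TNFRSF17 and TNFRSF13B were above the ceiling and TNFRSF13C, at 51.2, was not.

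**Figure D4:**
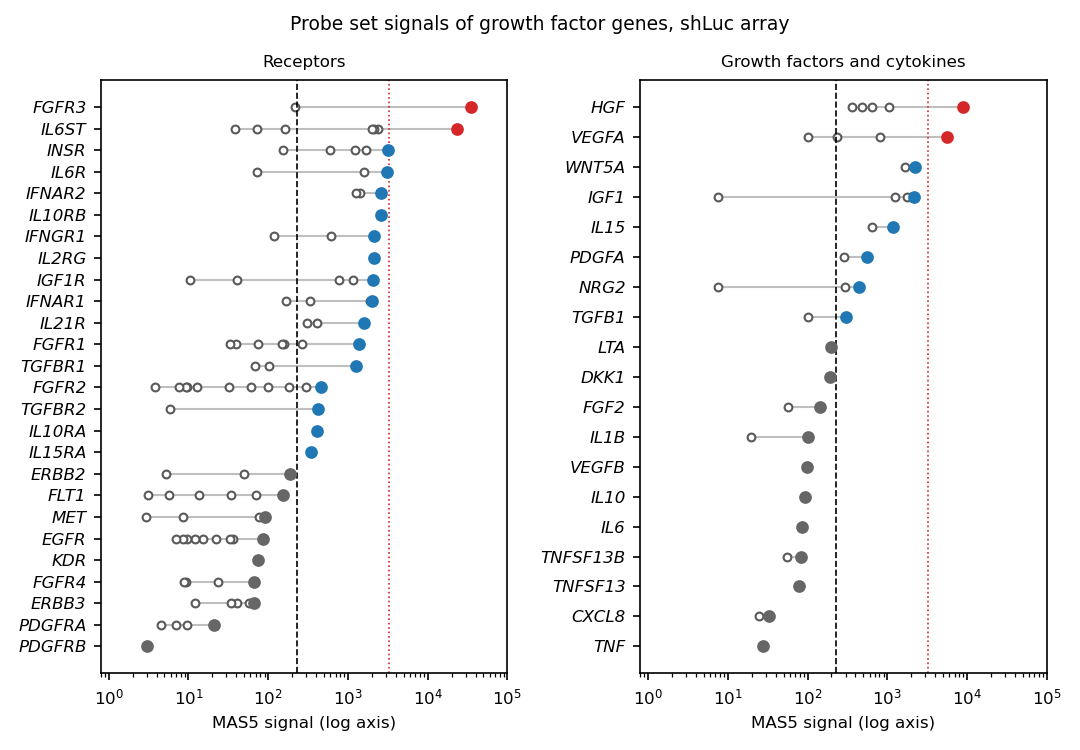
MAS5 signal (log axis) of every probe set of growth factor and cytokine receptors (left) and of growth factors and cytokines (right) on the shLuc array, drawn with filled points for the brightest probe set (red in the top 10%, blue above the ceiling, grey not above), open points for the others, a dashed line at the ceiling and a dotted line at the top 10%. FGFR3 and IL6ST on the left and HGF and VEGFA on the right are in the top 10%, and MET and IL6 lie left of the ceiling.

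Genes of the cell cycle were above the ceiling with 1 exception. Of 35, 34 were above the ceiling and 19 in the top 10%, against a matched share above the ceiling of 51.8%. TOP2A, the topoisomerase of dividing cells, read 28043, 19379.9 and 446, TYMS, thymidylate synthase, at most 25182, and the mitotic genes CCNB2, CCNB1 and AURKA at most 17793, 15453 and 14839.7. CDKN1B, which encodes the inhibitor p27, read 16737. Of the kinase partners of CCND2, CDK4 read 3782 and CDK6 at most 3723, with 3 of 7 probe sets above. CCNE1, a cyclin of the G1/S transition, read at most 218 and was not above the ceiling, whereas CCNE2 read 6408 and 731.

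In the BCL2 family, 11 of 15 were above the ceiling, against a matched share of 53.8%. The survival gene MCL1, on which plasma cells depend, was above on 4 of 6 probe sets, up to 25454. BCL2, the target of venetoclax, was above on 1 of 4 (1874, 122, 105 and 46.5) and BCL2L1 on 2 of 4 (at most 1689), while BCL2A1 read 3.21, BCL2L2 101 and HRK 201, not above. Of the BH3-only genes, which promote death, PMAIP1 (NOXA) read 8913 and 6332, BCL2L11 (BIM) was above on 6 of 7 and at most 4925, and BID and BMF read 1372 and 1110.4. The effectors BAX and BAK1 read 853 and 881, and BOK 40.1, not above. Of the measured death receptor and caspase genes all were above, 8 of 8 against a matched share of 64.3%, with CASP8 at 8800.3, FAS at 4573, 4277, 2698, 1587 and 292, XIAP at 5426, the inhibitor CFLAR at 5091, and the TRAIL receptor genes TNFRSF10A and TNFRSF10B at 2313 and 779.

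Antigen presentation genes of class I were all above the ceiling (12 of 12, matched share 53.1%), led by B2M at 67146, HLA-C at 32482 and HLA-B at 30333. Class I heavy chain genes share much of their sequence, so HLA-G at 9646 and HLA-F at 5384 may hold signal of the others. Of the class II genes, which plasma cells normally silence, 7 of 11 were above, against 52.4% of genes with the same numbers of probe sets. HLA-DRA read 7013 and 3525, the invariant chain CD74 5093, 84.4 and 40.8 and HLA-DRB1 3487, all in the top 10% on their brightest probe set. HLA-DMB, HLA-DOA, HLA-DOB and HLA-DQA1 were not above the ceiling, at 189, 49.9, 188 and 214. A probe set that HLA-DQA1 shares with HLA-DQA2, left out of the gene calls, read 620.3, above the ceiling. Interferon-stimulated genes were mostly at background after the lentiviral infection. Of 21, 6 (28.6%) were above the ceiling, namely IFIH1 (1489.7), IFI6 (1277), IRF9 (924), IFIT3 (692), HERC5 (683) and RIGI (316), and genes with the same numbers of probe sets were above in 40.9%. ISG15 read 79.9, IFI27 63.2, IFI44L 14.8 and IFIT1 131, while MX1 at 220.5 and IRF7 at 227 fell just short of the ceiling.

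Among adhesion and homing genes, ITGB1, ITGA4 and CXCR4 were above the ceiling and ITGB2 was not. Of 20, 14 were above the ceiling, against a matched share of 53.5%. ITGB1 read up to 13467 with 3 of 7 probe sets above. Its partner ITGA4, with which it forms the receptor VLA-4 for stroma, read 4101 with all 4 probe sets above. CXCR4, the receptor that holds cells in bone marrow, was above on all 3 probe sets, at most 11574. ITGAV read 3909.6 and ICAM1 2717. Not above were ITGB2, the leukocyte integrin chain, at 24.5 over 3 probe sets, ITGA5 at 15.1, ITGB3 at 80.9, CXCR3 at 53.3, CCR2 at 48.4 and S1PR1 at 46.3.

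Of 19 genes whose products are drug targets in myeloma or alter the response to treatment, 16 were above the ceiling, against a matched share of 53.9%. CRBN, the ligase subunit that immunomodulatory drugs bind, read 2115 and 1622. NR3C1, the glucocorticoid receptor gene, was above on all 5 probe sets, at most 5695. XPO1, the nuclear exporter inhibited by selinexor, read at most 16965, TUBB 11747, HDAC1 10284 and EZH2 6004. PSMB5, the proteasome subunit that bortezomib inhibits, read 1699.5. The 3 not above were CD38, FCRL5 and ABCB1, the drug efflux pump, at 51.0. All 27 proteasome genes were above the ceiling and 23 in the top 10%, against a matched share above the ceiling of 44.5%. Among them were PSMB4 (23247), PSMA2 (19054), PSMA4 (18819), PSMB1 (15064), PSMB3 (12622) and PSMD4 (11603). All 19 genes of glycolysis were above, against a matched share of 48.1%, with GAPDH at 48762, 42218 and 41133, LDHA at 32492, LDHB at 31829, PGK1 at 30882, ENO1 at 17703 and ALDOA at 15677. Of 43 ribosomal protein genes, 42 were above, against a matched share of 47.9%, and all of those were in the top 10%. The exception, RPLP2, read 144 on its own probe sets, but a probe set that it shares with SNORA52, left out of the gene calls, read 54063.

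Markers of other cells were at background, with few exceptions. None of 16 T and NK cell markers was above the ceiling (matched share 42.5%), their highest being PRF1 at 185, with CD3D at 91.3, CD3E at 105 and CD2 at 23.3. None of 11 myeloid markers was above (matched share 41.7%), the highest being CSF1R at 80.0, with CD14 at 39.5 and LYZ at 54.6. Of 9 erythroid and megakaryocyte markers, 2 were above against a matched share of 45.2%, EPOR on 1 of 5 probe sets (719.7) and HBB on 2 of 4 (307). Of 12 stromal and endothelial markers, 2 were above against a matched share of 58.5%, PECAM1 (CD31), which plasma cells also carry, at 601 and COL1A1 on 1 of 5 at 285. The defining stromal and endothelial genes COL3A1 and CDH5 read 31.1 and 3.25.

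**Figure D5:**
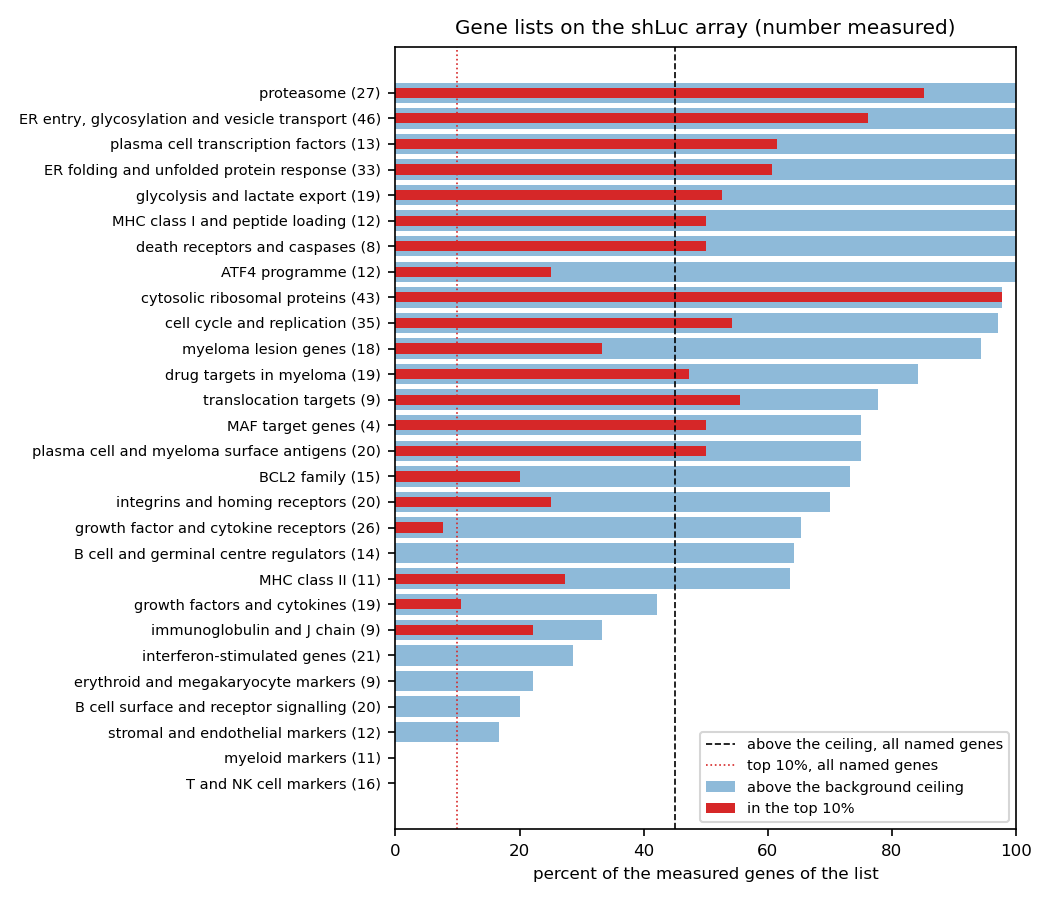
Percent of the measured genes of each list that were above the background ceiling (wide bars) and in the top 10% (narrow bars) on the shLuc array, with the number measured in brackets; the dashed and dotted lines are the shares of all named genes, 45.1% and 10%. Lists of secretory, proteasome and plasma cell factor genes reach 100% above the ceiling. So do those of glycolysis, the ATF4 programme, MHC class I and peptide loading, and death receptors and caspases. T and NK cell and myeloid markers are at 0%.

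The 30 brightest genes outside the ribosomal protein list held 5 mitochondrially encoded genes, COX2 (77117), ND4 (68135), COX1 (63993), ATP6 (49588) and ND2 (46569), and 5 ribosomal protein genes that the list had left out. Others were the elongation factor EEF1A1 (65333), TPT1 (64267), the actin-binding peptide gene TMSB4X (62729.5), the isomerase PPIA (56378), EIF1 (55746), NACA (51752), the poly(A)-binding protein genes PABPC1 (50748) and PABPC3 (51897), HMGB2 (50698), UBB (49072), the histone variant gene H2AZ1 (46739.9), GNAS (45378), ATP5F1E (44185), the glycoprotein gene CREG1 (55378), HUWE1 (55564) and the noncoding RNA MALAT1 (47863). PABPC3 is a near-identical copy of PABPC1, so its signal may be that of PABPC1. The members of the fixed lists among the 30 were 4, B2M, JCHAIN, GAPDH and IGKC. Over the 5 probe sets of HUWE1 the median was 271 and the lowest 11.5.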

How the data were processed

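Biotin-labelled RNA of KMS11 cells was hybridised to an Affymetrix expression array, per the labels. The deposited values are linear signal intensities per probe set that the authors made with MAS5, per the submitters' processing notes, and GeneSpring, per the series' design text. For both, the version and settings are not given in the sources used here. Identifiers in the deposited table are those of the HG-U133 Plus 2.0 array, although the design text has an earlier array of that family. The 2% trimmed mean of the shLuc array was 500.1, and 204 probe sets had the lowest value, 1.

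Gene names came from GEO's platform annotation, in which 41037 symbols were matched to RefSeq (GRCh38.p14) by gene identifier. Control probe sets (62), those with several symbols (1801) and those unnamed here (11721) were left out of the gene counts. The ceiling is the 95th percentile of the brightest probe sets of the tissue-restricted genes. The matched share of a list is the mean, over a list's members, of the share above the ceiling among all genes with as many probe sets, with 8 or more pooled. There were 28 further lists, with 16 genes in more than 1 of the lists. Members and lists were chosen with earlier results of these data known. Named were the markers, every measured member of 7 lists, the 6 brightest and up to 6 members not above the ceiling of every other list, and the 30 brightest genes outside the ribosomal list, with placeholder names skipped. A selection of these is printed, and some others were named after their values were seen. Some listed genes were not analysed here. The number of arrays limits the precision, and no test was run. A planned description of protein ends and lengths was not made. The software was Python 3.11.15 with matplotlib 3.10.9, pandas 2.3.3, numpy 2.4.6 and scipy 1.17.1.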

Additional observations from a re-analysis of the deposited data

How the results depend on the processing

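The count of genes above the ceiling, 8914, stayed within 1.5 times under a ceiling at the 90th percentile of the reference genes (10797), at the median (11141) or 75th percentile (6632) of named probe sets, with the median over a gene's probe sets (8879), when probe sets with the suffix _x_at or _s_at were dropped (7651) and, an alternative chosen after seeing the data, without KRT10 in the reference (9069). A ceiling at the highest reference gene, KRT10 at 7035, left 834 genes. It left 4 plasma cell factors, 0 B cell and germinal centre regulators, 0 B cell surface genes, 5 surface antigens, 2 receptors, 13 ER folding genes, 25 genes of ER entry and 95 genes of the other lists, and 5 of 7 translocation targets stayed. The count of B cell surface genes, reported as 4, was 8 at the 90th percentile, 9 at the median of probe sets, 1 at their 75th percentile, 1 with the median over probe sets and 2 of 17 without _x_at and _s_at probe sets. The last setting also left 3 translocation targets of 6. Leaving out KRT10 moved none of 29 counts by over 1.5 times, and dropping _x_at and _s_at probe sets moved 8 of them. Of 86 genes in the lists named in full, 77 kept their side with the median over probe sets, NUAK1 came above the ceiling, and CCND3, CIITA, IGKC, IGLC1, IKZF1, MYCN, NFKB2 and ZBTB20 fell under the ceiling. The ceilings at the 90th percentile and at the median of probe sets brought EBF1, EGR1, FCRL5, NCAM1 and NUAK1 above. The 75th percentile lost 9 of the 86, BCL6, GPRC5D, IRF8, MAP3K14, POU2F2, SP140, SPIB, TNFRSF13B and ZBTB20. The ceiling at KRT10 lost 47, among them the markers IRF4, PRDM1 and SDC1. Dropping _x_at and _s_at probe sets kept 65 of the 86 on their side. It lost CD58, IGKC, IGLC1, KDM6A, MYCN and NFKB2 and gained NUAK1. The remaining genes had no other probe set and could not be assessed, among them FGFR3, MYC and CCND2. Calls near 228 or on 1 of several probe sets are therefore the least secure. No paired analysis was possible because 1 array was described and each group had 1 array.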

Other observations

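By gene type, 8568 of 16520 protein-coding genes (51.9%) were above the ceiling on the shLuc array, against 220 of 2657 long noncoding RNA genes (8.28%) and 95 of 423 transcribed pseudogenes (22.5%). By chromosome the share above the ceiling ran from 36.8% of 242 genes on chromosome 21 to 50% of 612 on chromosome 15, with 45.1% of 793 on chromosome 4, which carries NSD2 and FGFR3, and 45.5% of 611 on chromosome 14.

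The promoter windows of named genes differed in base composition between classes of signal. The 250 bases before the start site had a median GC content of 64% and 22 CpG dinucleotides in the 1683 windows of genes in the top 10%, 65.2% and 21 in the 5764 of other genes above the ceiling, and 59.2% and 10 in the 7934 of genes not above it. The motif TATAAA, on either strand, was in 6.65%, 4.48% and 11.5% of these windows, and in 42% of the 50 windows of tissue-restricted genes. The E-box CACGTG was in 10.3%, 9.09% and 6.38%. CCAAT was in 39.6%, 36.1% and 31.5% of the classes, but in 46% of the 50 windows of tissue-restricted genes. It was in 80% of the 30 folding gene windows and in 65.5% of the 29 windows of cell cycle genes. These are descriptions with no test.

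For some genes the brightest and dimmest probe sets lay at opposite ends of the scale, among them HUWE1 (55564 and 11.5), IRF4 (5291 and 1.97), GNAS (45378 and 7.68) and IGKC (43833 and 3.10). These were chosen after their values were seen.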
